A study of Fundulus heteroclitus with 5 samples.

Results

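Of the 212 features in the deposited value table, 36 had a value at 50× RNA that was more than 1.5 times their value at 10× RNA. These 36 features, called gaining features here, were 17.0% of the listed features, which is also the share of all listed features past this limit, because the limit defines the set. The array carries 384 features in all. The members were chosen on their values at 10× and 50×, so these values describe them and were not tested. The member nearest to the limit had a ratio of 1.504 (1881 at 50× and 1251 at 10×), and the nearest listed feature outside had 1.49 (1009 and 676).

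The study hybridized labeled RNA from the heart of the killifish *Fundulus heteroclitus*, acclimated to the laboratory for about 6 months, to 5 two-color cDNA arrays at 50×, 10×, 5×, 1× and 0.1× of the RNA concentration usually applied. There was 1 array for each concentration, and no array was repeated. RNA labeled with Cy3 and RNA labeled with Cy5 were taken to share an array at the same nominal concentration. The pairing rests on the titles of the samples and on the names of the columns, and Cy5 was used at 18% less than Cy3. Each feature was printed as 4 spots, giving 8 fluorescence values per feature and array.

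On a cDNA microarray a printed DNA captures labeled RNA of matching sequence, and the scanner reads the dye that stays bound. The signal of a spot depends on the amount of RNA, the amount and length of the printed DNA, the dye carried per molecule, and the light that the slide gives without any RNA. Per the study's methods the array was printed with 329 cDNAs for proteins of cellular metabolism and 55 control genes. Heart muscle is among the tissues that depend most on oxidative metabolism. Numbers and not gene names identify the features in the files, and 0 of the 212 listed numbers matched the gene table used here, so neither pathways nor markers of heart muscle could be checked. No probe sequence was paired with a feature either. A difference in fluorescence between features is not a difference in RNA abundance, and the groups of features are set side by side below only as sets of spots.

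Values in the deposited table are fluorescence scaled to the same total on every array (249996 to 250008 over the 212 features) and averaged over the dyes, called sum-normalized units here. A feature gains on this scale when its fluorescence grows more than the summed fluorescence of the list. A gain of 1 feature therefore needs a loss by others. From 10× to 50×, 36 features gained, 84 had a value at 10× more than 1.5 times that at 50×, and 92 did neither.

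Feature 192 had the highest ratio of 50× to 10×, 3.69. Its value was 869 sum-normalized units at 0.1×, 768 at 1×, 785 at 5×, 558 at 10× and 2057 at 50×. The value at 50× was the highest of the 5 and that at 10× the lowest. Feature 331 came next with a ratio of 3.32 and with values of 1295, 915, 865, 721 and 2396 in the same order of concentration. It fell at each step to 10× and was highest at 50×. At the other end of the list, features 196 and 151 had ratios of 0.196 and 0.198. Feature 196 had 214 units at 50× and 1091 at 10×.

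The 36 gaining features had ratios of 1.504 to 3.69 with a median of 2.18 ± 0.452 (SD over the 4 sets of spots), against 0.196 to 1.49 with a median of 0.686 in the other 176 listed features. Their median value was 1014.5 units at 0.1×, 1046.5 at 1×, 1018.5 at 5×, 945.5 at 10× and 2177.5 at 50×. The first 4 medians lay close together and the last stood apart. The other listed features had medians of 660.5, 840, 1023.5, 987.5 and 712 from the lowest concentration to the highest.

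The value at 50× was the highest of the 5 arrays in 33 of the 36 gaining features. It was the highest in 66 of all 212 listed features (31.1%). The count in the gaining features follows in part from their choice on this value. In the remaining 3 gaining features (8.33%) the highest value was at 0.1×. This was so in 14 of all 212 listed features (6.60%), a similar share. One of the 3 members had the highest value of all listed features at 0.1×, with 22549 units there, 18733 at 1×, 5159 at 5×, 2736 at 10× and 5086 at 50×. Another had 8168, 2394, 1143, 1039 and 2993 units, and the third had 3770, 1614, 1008, 729 and 2340. In these 3 features the value fell at each step up to 10×, and at 50× it stayed below that at 0.1×.

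**Figure D1:**
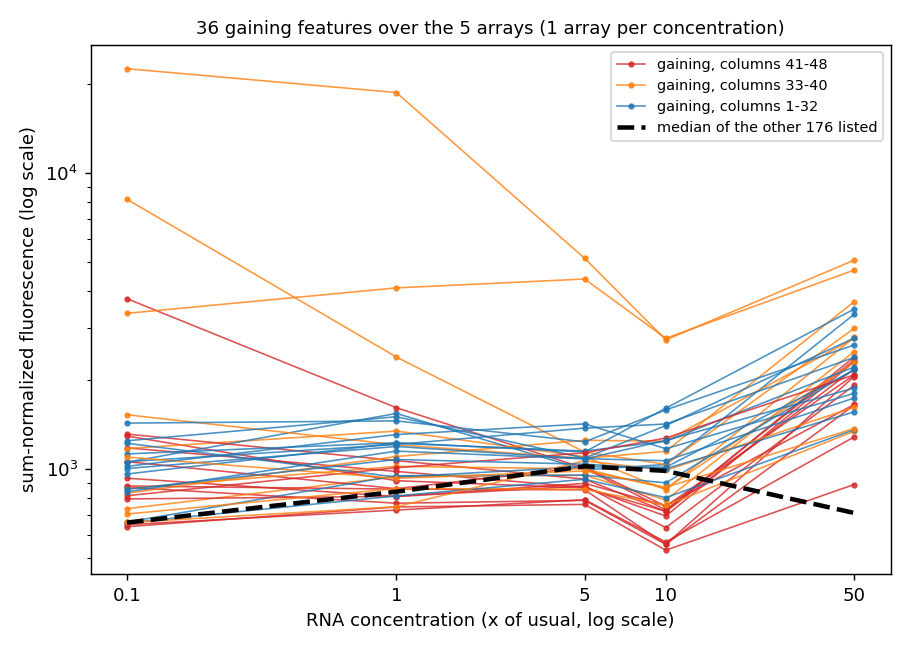
Sum-normalized fluorescence of each of the 36 gaining features (thin lines, 1 array per concentration, log axes), colored by the array columns in which the feature was printed, with the median of the other 176 listed features (dashed). The highest line reads 22549 units at 0.1× and 2736 at 10×, and the median of the gaining features is 945.5 at 10× and 2177.5 at 50×.

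The 50× value can also be set against the 3 lower concentrations. It at 50× was more than 1.5 times that at 5× in 30 of the 36 gaining features, that at 1× in 27 and that at 0.1× in 30. Over all 212 listed features the same limit was passed by 19.3% against 5×, 22.6% against 1× and 35.4% against 0.1×. These counts share the 50× value with the choice of the members and support nothing by themselves. The median ratio of 50× to another array was 2.08 for 5×, 2.00 for 1× and 2.02 for 0.1× in the gaining features. It was 0.708, 0.782 and 1.01 in the other listed features.

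The gaining features together held 27.6% ± 1.33 (SD over 4 spot sets) of the listed fluorescence at 0.1×, 24.1% ± 1.03 at 1×, 17.7% ± 0.75 at 5×, 15.2% ± 0.304 at 10× and 33.4% ± 4.62 at 50×. Their combined share was lower on each of the first 4 arrays than on the one before and was highest at 50×. The 10× and 50× shares follow in part from the choice of the members, and the SD covers spots of 1 array and not repeated arrays. A single feature, the one with 22549 units at 0.1×, carried much of the difference among the first 3. With it left out of the members and of the totals, the shares were 20.4%, 17.9%, 15.996%, 14.3% and 32.02%. These still hold the other 2 members that were highest at 0.1×, with 8168 and 3770 units there and 2394 and 1614 at 1×. In the features with 22549 and 8168 units, Cy5 at 0.1× was 34977 ± 22513 and 11336 ± 8694 (SD, n = 4 spots). The fall in the summed share thus does not show by itself a fall in most members. Their medians were 1014.5, 1046.5, 1018.5 and 945.5 units from 0.1× to 10×. Those of the other listed features were 660.5, 840, 1023.5 and 987.5. Relative to the list the members did move down. Of the 36, 31 were above the median of all listed features at 0.1×, 26 at 1×, 17 at 5× and 18 at 10×.

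Fluorescence before any scaling showed the same members in a different way, since every listed feature was brighter at 50× than at 10× in each dye. For Cy3 the median of the gaining features was 327 at 0.1×, 210.5 at 1×, 188 at 5×, 329 at 10× and 13126 at 50×. In the other listed features it was 172, 143, 178.5, 354 and 4031. The gaining features thus read above the rest at 0.1×, 1× and 50× and close to them at 5× and 10×.

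For Cy5 the median of the gaining features was 1720 at 0.1×, 1357 at 1×, 1415 at 5×, 541.5 at 10× and 20062.5 at 50×. The other listed features had 1471, 1308, 1458.5, 586 and 6072.5. The Cy5 signal of all 36 gaining features, and of all 176 others, was lower at 10× than at 5×. This dip at 10× was absent from Cy3, where 2 of the 36 gaining features and 0 of the others were lower at 10× than at 5×.

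From 10× to 50×, a 5-fold change in RNA, unscaled Cy3 fluorescence rose by 15.9-fold to 92.1-fold in the gaining features with a median of 40.3-fold, against a median of 9.85-fold in the other listed features. Unscaled Cy5 rose by 17.0-fold to 62.0-fold with a median of 37.5-fold, against 11.4-fold. The lowest rise among the gaining features was therefore more than the 5-fold change in RNA in each dye. Most other listed features passed 5-fold too, with a lower quartile of 6.23-fold for Cy3 and 7.09-fold for Cy5. Unscaled signal did not track RNA on the lower arrays. It was higher at 10× than at 0.1× in 178 of 212 listed features for Cy3 and in 0 of 212 for Cy5. A rise between arrays therefore cannot be read against the 5-fold change in RNA. Feature 192 had a Cy3 fluorescence of 14827 ± 9564 at 50× and 161 ± 24.8 at 10×, and a Cy5 fluorescence of 14792 ± 13196 at 50× and 383 ± 17.0 at 10× (SD, n = 4 spots). Its spots at 50× differed among themselves far more than those at 10×. No spot of a gaining feature reached the scanner's ceiling of 65535, the highest being 59642.

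**Figure D2:**
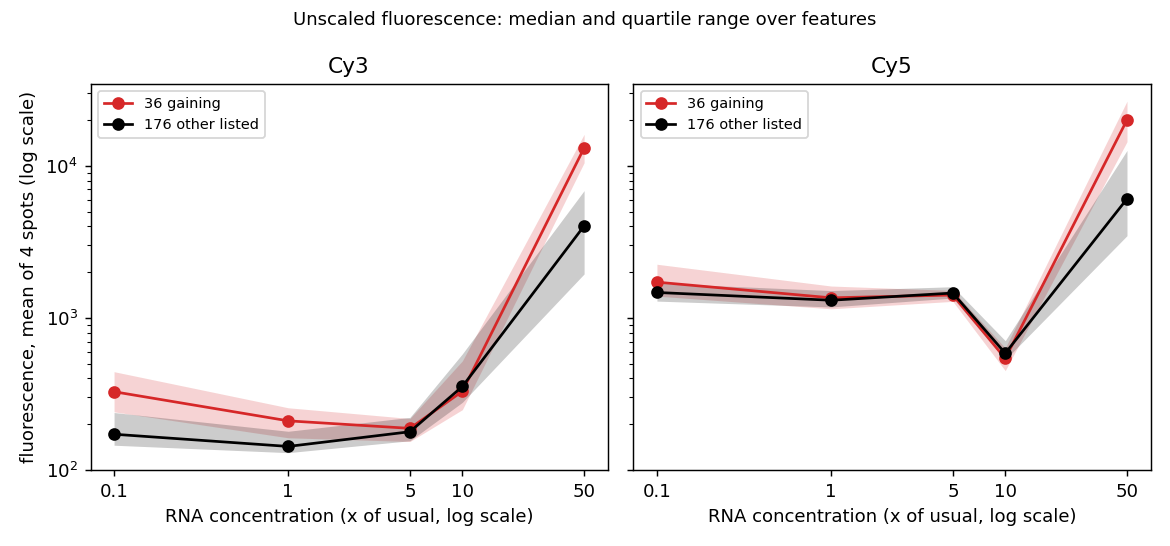
Unscaled fluorescence of Cy3 (left) and Cy5 (right) on log axes, as the median (line) and quartile range (band) over the 36 gaining features and over the other 176 listed features. At 50× the medians are 13126 and 4031 for Cy3 and 20062.5 and 6072.5 for Cy5, and at 10× they nearly coincide.

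The gain was not the same in the 2 dyes. After scaling each dye by itself, the ratio of 50× to 10× exceeded 1.5 in 21 of the 36 gaining features for both dyes, in 8 for Cy3 only and in 7 for Cy5 only. Over all 212 listed features the shares were 9.91% for both dyes, 8.96% for Cy3 only and 9.43% for Cy5 only. These ratios use the same values as the choice of the members. The Cy3 ratio of the gaining features ranged from 1.12 to 6.49 with a median of 2.84, and the Cy5 ratio from 0.926 to 3.37 with a median of 2.04. The Cy3 ratio was above the Cy5 ratio in 22 of the 36, and in 57.1% of all listed features, a similar share. Feature 192 had 6.49 in Cy3 and 2.10 in Cy5, and feature 331 had 4.84 and 2.33. The feature with the lowest Cy3 ratio, 1.12, had one of 2.67 in Cy5.

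Spots of a gaining feature disagreed at 50×. The median coefficient of variation (CV) among the 4 spots was 50.2% for Cy5 and 22.1% for Cy3 at 50×, against 11.9% and 16.5% at 10×. In the other listed features it was 29.6% and 14.2% at 50×. Among these, the 92 features that neither gained nor lost had 43.1% for Cy5 and 16.5% for Cy3. The ratio computed from each set of spots by itself exceeded 1.5 in all 4 sets for 14 gaining features, in 3 sets for 10, in 2 sets for 9 and in 1 set for 3. Among the other 176 listed features it did so in 4 sets for 0, in 3 for 1, in 2 for 13 and in 1 for 18. Over all 212 listed features the shares were 6.60% for 4 sets, 5.19% for 3, 10.4% for 2 and 9.91% for 1. In single sets of spots the members and the others thus overlapped. The SD of a gaining feature's ratio over the 4 sets ranged from 0.127 to 1.94, so the members differed widely in how firmly the spots placed them above the limit.

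The position of the features on the slide was not used in the choice. The array had 48 columns and 32 rows, and the 4 spots of a feature lay in the same column, in rows 1 to 8, 9 to 16, 17 to 24 and 25 to 32. Of the 36 gaining features, 23 lay in columns 33 to 48, against 34 of the other 176 listed features. The highest ratios were the most concentrated there, with 14 of the first 16 and 9 of the following 20. By bands of 8 columns, a division made after the values were seen, gaining features were 0 of 39 listed features in columns 1 to 8, 7 of 45 in columns 9 to 16, 5 of 42 in columns 17 to 24, 1 of 29 in columns 25 to 32, 11 of 33 in columns 33 to 40 and 12 of 24 in columns 41 to 48. This made 50.0% of the last band, where 17.0% of all listed features were members. Among the 8 rows within a spot set, 0 of the 26 listed features of the last row were gaining. In each of the other rows 2 to 7 were, out of 19 to 33 listed features. Since all spots of a feature share a column, the column and the printed cDNA cannot be told apart.

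**Figure D3:**
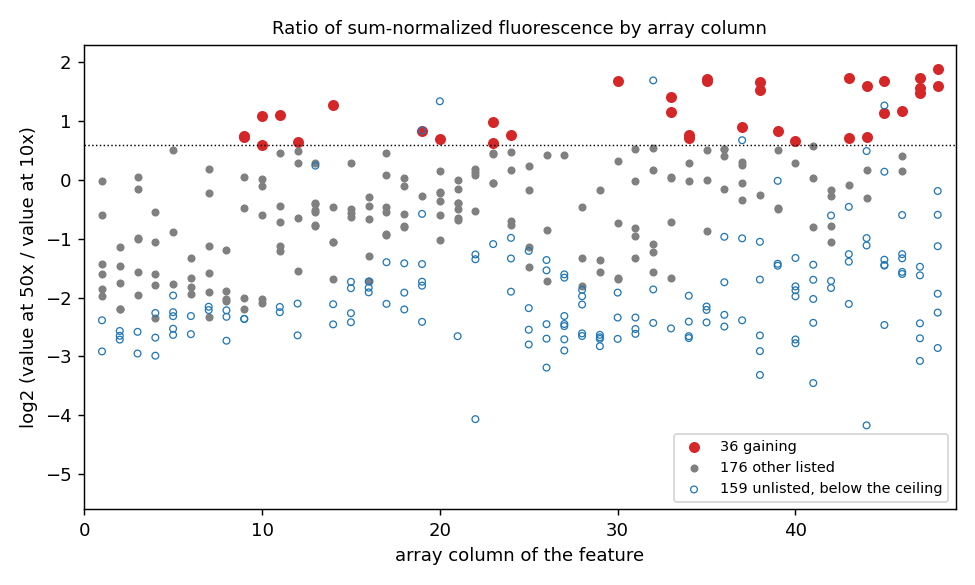
Log2 ratio of sum-normalized fluorescence at 50× to that at 10× against the array column of the feature, for the 36 gaining features, the other 176 listed features and 159 unlisted features without a spot at the scanner's ceiling. The dotted line is the 1.5-fold limit, and 23 of the 36 gaining features lie in columns 33 to 48 and 0 in columns 1 to 8.

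Features outside the list could not become members, but they are not free of selection. The paper took its 212 genes from the 329 metabolic cDNAs. It kept those whose average signal over all arrays and dyes exceeded background and stayed below saturation. By that account the unlisted features also hold the 55 printed controls, among them negative controls and labeled position spots. The feature numbers do not show which these are. The median value at 50× was 186 units in the unlisted features below the ceiling, against 855.5 in all listed features. Low ratios of 50× to 10× among unlisted features may therefore follow in part from how the list was made. Of the 172 unlisted features, 159 had no spot at the ceiling, and 5 of them (3.14%) had a ratio above 1.5 when scaled by the same totals. The median value of these 159 features at 10× was 889 units in columns 1 to 8, 881 in columns 9 to 16, 839 in columns 17 to 24, 736 in columns 25 to 32, 669 in columns 33 to 40 and 597 in columns 41 to 48. It was lower in each band than in the one before. At 50× the medians were 175, 196, 301, 134, 151 and 219, with no such order. The ratio of 50× to 10× had medians of 0.171, 0.227, 0.373, 0.183, 0.225 and 0.362 from the first band to the last, with no steady order. In the other listed features they were 0.335, 0.671, 0.823, 0.534, 1.01 and 0.918.

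Members printed on the right of the array and those printed elsewhere differed in shape. In the 23 gaining features of columns 33 to 48 the median was 2182 units at 50× and 756 at 10×, and the 10× value was the lowest of the 5 arrays in 16 of them. In the 13 gaining features of columns 9 to 32 the median was 2173 at 50× and 1173 at 10×, and the 10× value was the lowest in 0. Over all listed features the 10× value was the lowest in 11.8%, and it took part in the choice of the members. The median ratio was 2.78 on the right and 1.70 elsewhere. By dye it was 3.32 for Cy3 and 2.10 for Cy5 on the right, and 1.77 and 1.99 elsewhere. The other listed features of columns 33 to 48 had median Cy3 ratios of 1.26, 1.33, 1.18 and 1.14 in the 4 spot sets. Their Cy5 ratios were lower, with 1.11, 0.762, 0.380 and 0.559. Their median at 10× was 668 units in columns 41 to 48, against 1002 in columns 1 to 8. A low 10× value and a higher Cy3 ratio in these columns were thus not particular to the members. All 3 members with their highest value at 0.1× were printed in columns 33 to 48, where 23 of the 36 members lie.

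Rows showed a further pattern in columns 41 to 48. The 12 gaining features there had a median ratio of 50× to 10× of 4.69 in rows 1 to 8, 3.52 in rows 9 to 16, 1.53 in rows 17 to 24 and 1.29 in rows 25 to 32. The ratio from rows 1 to 8 was the highest of the 4 in 12 of these 12 features, and it was 1.78 to 4.90 times that from rows 25 to 32. Feature 192 had ratios of 5.65, 4.08, 2.11 and 1.59 from top to bottom, and feature 331 had 4.51, 3.76, 2.55 and 2.54. In rows 25 to 32 the ratio exceeded 1.5 in only 4 of the 12 features.

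The 11 gaining features of columns 33 to 40 had median ratios of 2.53, 2.73, 1.66 and 2.41 in the same order of rows, and the 13 of columns 9 to 32 had 1.30, 1.75, 2.14 and 1.84. The ratio from rows 1 to 8 was above that from rows 25 to 32 in 8 of the 11 and in 3 of the 13. Among the other listed features it was so in 18 of the 22 in columns 33 to 40 and in 27 of the 103 in columns 9 to 32. It was so in all 12 of the other listed features of columns 41 to 48 as well. There the ratio from rows 1 to 8 was the highest of the 4 in 10 of these 12 and in 31 of the 38 unlisted features.

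**Figure D4:**
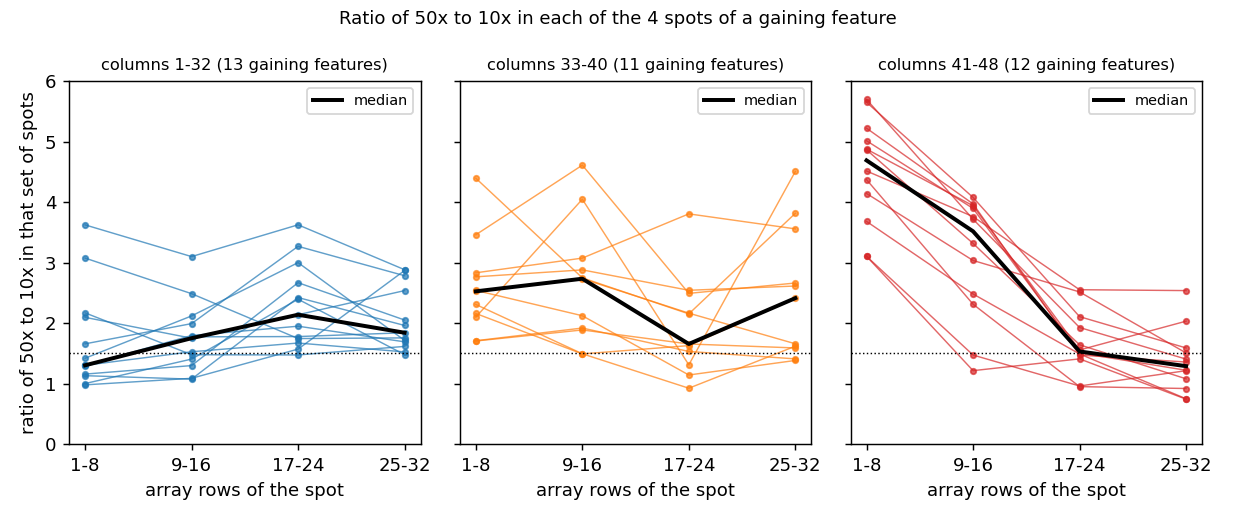
Ratio of sum-normalized fluorescence at 50× to that at 10× computed from each of the 4 spots of a gaining feature, by the array rows of the spot, for features printed in columns 1 to 32, 33 to 40 and 41 to 48. Thin lines are single features, the thick line is the median, and the dotted line is 1.5. In columns 41 to 48 the median is 4.69 in rows 1 to 8 and 1.29 in rows 25 to 32.

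The rows also differed in unscaled fluorescence. In the 12 gaining features of columns 41 to 48, the median Cy3 fluorescence at 50× was 23270.5 in rows 1 to 8, 16804 in rows 9 to 16, 9254.5 in rows 17 to 24 and 5703.5 in rows 25 to 32. At 10× it was 203, 176, 250.5 and 221.5, with no fall from top to bottom. On the arrays that the choice did not use, Cy3 was higher in the upper rows too, with 483.5, 374.5, 297 and 290 at 0.1×, 229, 206.5, 150 and 143.5 at 1×, and 186, 161.5, 138 and 138.5 at 5×. Cy5 on these arrays varied less in proportion. It was 1434.5, 1464.5, 1305 and 1314 at 0.1×, 1205, 974.5, 1106.5 and 1068.5 at 1×, and 1270.5, 1271.5, 1264 and 1198.5 at 5×. In the same columns, Cy3 at 0.1× was 190.5, 177.5, 151.5 and 172.5 in the other listed features. It was 145.5, 129.5, 141.5 and 138.5 in the unlisted ones. For Cy5 the medians at 50× were 28307, 16902.5, 6273.5 and 3507, and at 10× they were 417, 418, 429.5 and 439.5. The 38 unlisted features of the same columns had 50× medians of 2436, 1445, 962 and 779.5 for Cy3 and 2968.5, 1777, 1233.5 and 1191 for Cy5. In the 13 gaining features of columns 9 to 32 the order was the reverse for Cy5 at 50×, with 10946, 15382, 28239 and 29763, and there was none for Cy3, with 11919, 13356, 11778 and 9985. Cy5 at 50× was higher in the lower rows of these columns in the other listed features too, with 4851, 5217, 10327 and 9650. The unlisted ones had 1553, 1649.5, 1949 and 2095.5. The part that position plays in the choice of the 36 features was not tested.

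The 0.1×, 1× and 5× arrays took no part in the choice of the 36 from the list and allow a test. The paper's list itself rests on signal averaged over all arrays. Signal on these arrays was low. The Cy3 medians were 327, 210.5 and 188 in the gaining features, and 172, 143 and 178.5 in the other listed features. They were 135, 124 and 149 in the unlisted features below the ceiling. Without background values the slopes cannot be separated from the slide's own light. The slope of log2 sum-normalized value on log2 concentration over these 3 arrays was fitted with limma to all 212 listed features. It was past an adjusted p of 0.05 in either direction in 10 of the 36 gaining features, where 60.4% of all listed features were called. It was positive and past it in 4 of the 36 gaining features, where 53.8% of all were called, and negative and past it in 6 of the 36, where 6.60% were called. All 6 members called negative were printed in columns 33 to 48, where 23 of the 36 lie. The 4 called positive were printed both in these columns and outside them. The median slope was 0.01 per doubling in the gaining features (range -0.50 to 0.12), against 0.11 in the other listed features. Feature 331 had a slope of -0.11 ± 0.03 (SE) at an adjusted p of 0.047 (limma, Benjamini-Hochberg), and feature 192 had -0.03 ± 0.02 at an adjusted p of 0.30.

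The sign of the slope depended on the scaling. With each array scaled to its median in place of its total, the median slope of all listed features moved by about 0.10, and the gaining features had a median of -0.09 against 0.01 in the others. Then limma called 0 of the 36 positive (0 also at an unadjusted p below 0.05), where 2.36% of all were, and 17 of the 36 negative, where 15.6% of all were. In sign, the slope was below 0 in 17 of the 36 with the total (33 of all 212) and in 34 with the median (113 of all 212). Scaling to the sum over all 384 features moved the slopes the other way, with a median of 0.06 in the gaining features. Under it 16 of the 36 were called positive and 3 negative, against 166 and 11 of all 212. With Cy5 only, 7 were called positive and 1 negative, against 114 and 9 of all 212. With Cy3 only, 5 were called positive and 8 negative, against 113 and 16 of all 212. With 3 arrays the fit rests on 1 residual degree of freedom per feature and on the spread shared by all features. The p-values test the slope against 0, and their error comes from departures from a straight line and not from replicate arrays.

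The ratio of Cy5 to Cy3 on the same 3 arrays was tested against 0 after loess within each array. Cy5 medians from 0.1× to 5× were 1720, 1357 and 1415 in the gaining features and 1471, 1308 and 1458.5 in the other listed features. They were 1182, 1090 and 1303 in the unlisted features below the ceiling. Without background values the dye ratio cannot be separated from the slide's own light in each dye. In the gaining features the mean log2 ratio ran between -0.84 and 0.31 with its median at -0.19, against a median of 0.00 in the other listed features. It was below 0 in 24 of the 36, and in 109 of all 212 listed features. After Benjamini-Hochberg adjustment in limma, 1 of the 36 was called, with the lower value in Cy5, where 1.42% of all listed features were called, and at an unadjusted p below 0.05 there were 19 with lower Cy5 (17.0% of all listed features) and 4 with higher Cy5 (11.8% of all). The calls depended on the arrays used. Without the 0.1× array limma called 9 of the 36, all with lower Cy5, where 5.66% of all listed features were called so. Without the 5× array it called 20 of the 36, where 35 of all 212 listed features were called. Of these 20, 17 had lower Cy5, where 11.8% of all were called so. Without the 1× array it called 0, where 30 of all listed features had an unadjusted p below 0.05.

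The dye ratio also moved with the column. In the 12 gaining features of columns 41 to 48 the log2 ratio of Cy5 to Cy3 was below 0 in 12, with a median of -0.44. It was below 0 in 8 of the 11 in columns 33 to 40, with a median of -0.20, and in 4 of the 13 in columns 9 to 32, with a median of 0.07. The other listed features had medians of -0.17, -0.14 and 0.01 in these columns. On the arrays that the choice did not use, the gaining features at the right edge thus had a lower median than those elsewhere, and so had the other listed features of that edge, by a smaller amount. The part of the column in this difference was not tested.

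**Figure D5:**
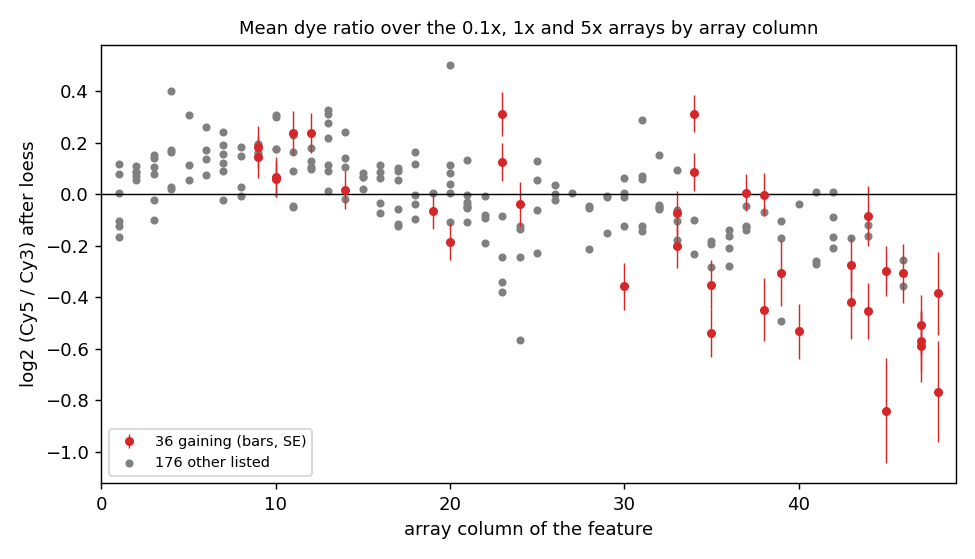
Mean log2 ratio of Cy5 to Cy3 over the 0.1×, 1× and 5× arrays, after loess within each array, against the array column, for the 36 gaining features (bars are the SE from limma) and the other 176 listed features. The median of the gaining features is -0.44 in columns 41 to 48 and 0.07 in columns 9 to 32.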

How the data were processed

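The authors scanned the slides, quantified the images with Imagene and deposited the fluorescence intensity of each spot for Cy3 and Cy5, with no background value, and a table of intensity for 212 features, made by bringing the dyes and arrays to 1 total. The study's methods describe a loop of hybridizations, whereas titles and columns pair the dyes by concentration. The 5 per-array records hold the same table, so 1 was used. Recomputing the deposited values from the spots came within 2 units for 1056 of 1060 values. How features were chosen for the list was not repeated here. The 36 members, the lists and the tests were chosen with earlier results of these data known. Members were taken by the ratio of 50× to 10× above 1.5. The features named are the 2 members with the highest ratio and the 2 listed features with the lowest, because numbers are not paired with gene names. Spot sets are the 4 printed copies of all features, and an SD over them covers error within an array only. Limma 3.58.1 in R 4.3.3 fitted slopes and dye ratios (lmFit, eBayes; loess with span 0.3 and 4 iterations, no background correction), and p-values were adjusted over all 212 features. Both steps were tested on simulated data for the 212 features. The dye step missed part of the known differences when these were placed in Cy5 alone. A form with the difference shared by the dyes, in which it found them, was added after that, and the count of dye calls may be too low. The simulated slopes and dye differences were larger than nearly all of those in the data. Their recovery therefore does not show how well smaller ones are found. Tables were made in Python 3.11.15 (pandas 2.3.3, numpy 2.4.6). Alternatives changed the scaling, the dyes, the spots, a background subtraction, the limit and the arrays. The number of arrays limits the precision.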

Additional observations from a re-analysis of the deposited data

How the results depend on the processing

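The number of gaining features was 36. It was 55 with a lower limit and 20 with a limit of 2, and under the other alternatives it was 33 to 54. Scaling arrays to their median or to the sum over 384 features raised the ratios, with medians of 2.42 and 2.59 in the 36. With this rise all 36 stayed past the limit, so their retention is no check, and 49 and 54 listed features passed it. Of the 36 members, 29 were kept with Cy3 only and 28 with Cy5 only. After subtracting the 5th percentile of all features 29 were kept (204 of 212 listed features kept a value), and 32 to 35 with 1 set of spots left out. Alternatives added after the data were seen kept 26 when features were scaled within bands of 8 columns, 31 from the spots of the upper 2 sets of rows only and 26 from the lower 2 only. The median ratio of the 36, 2.18, was 2.84 with Cy3 only, 2.79 after the subtraction (over the 32 members that kept a value above 0) and 1.71 within bands. Their share of the listed fluorescence at 10×, 15.2%, was 13.4% after the subtraction.

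The slope test called 128 listed features, against 38 with scaling to the median, 60 after the subtraction, and 0 over all 5 arrays, where 35 had an unadjusted p below 0.05. The median slope of the members, 0.0147, was -0.0883 with scaling to the median and 0.0555 with the sum over 384 features. It was -0.00697 with Cy3 only and -0.0384 after the subtraction (32 members). With 1 of the 3 arrays left out it was -0.00363 to 0.0558, so it has no settled sign. The dye test called 3 listed features, against 19 with median centring, 212 with no normalization, 13 with 384 features, 0 with the median of the spots (55 unadjusted), 24 over all 5 arrays, and 0 to 35 with 1 array left out. The cause of these changes was not tested. No paired analysis was possible because each concentration has 1 array and the labels give no replicate numbers. No depth is given for arrays, and without background values a signal near the slide's own light cannot be separated from it.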
